A study of Drosophila melanogaster with 2 samples.

Results

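The miR-2 and miR-13 miRNAs of Drosophila melanogaster are cut from 8 hairpin precursors, and all 8 were listed in both ovary libraries. The hairpins were chosen by name from the 235 hairpins of the miRNA tables: dme-mir-2a-1, dme-mir-2a-2, dme-mir-2b-1, dme-mir-2b-2, dme-mir-2c, dme-mir-13a, dme-mir-13b-1 and dme-mir-13b-2. The species prefix is left out of repeated names. One library came from pelo1/+ females, heterozygous for the pelo allele 1, and the other from peloPB60/1 females, which carry the alleles PB60 and 1 of the same gene. Allele 1 is therefore shared by both genotypes, and no library of flies without a pelo mutation was analysed here. Both libraries hold the 18 to 30 nt RNAs of hand-dissected ovaries from females 3 to 5 days old. The number of females per library is not given in the sources used here.

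Pelota, the protein of the pelo gene, frees stalled ribosomes, and in the ovary it is known for its role in keeping germline stem cells. miRNAs pair with mRNAs mainly through a short seed near their 5′ end. Those of the miR-2 and miR-13 family share a seed that matches the K box, a motif in the 3′ ends of many fly mRNAs. Through such sites the family is known to repress the pro-apoptotic genes reaper, grim and sickle, whose proteins release caspases from their inhibitor. In fly ovaries, cell death removes some egg chambers in mid-oogenesis and the nurse cells at the end of oogenesis. None of these target mRNAs was measured here.

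A number after the letter marks a genomic copy. The copies mir-2a-1 and mir-2a-2, mir-2b-1 and mir-2b-2, and mir-13b-1 and mir-13b-2 carry the same mature name, so the 8 hairpins give 5 mature names. In the Ensembl annotation of BDGP6, each hairpin has 2 annotated products, one per arm. The 3′ arm product, which carries the family seed, is 23 nt in each of the 5 miR-2 hairpins and 22 nt in each of the 3 miR-13 hairpins. Products of the 5′ arm differ more, from 21 nt in mir-2a-2 and 22 nt in mir-2a-1 to 25 nt in mir-13b-1 and 24 nt in mir-13b-2. The deposited counts are given per hairpin, and both arms share 1 count. How a read that matches both copies was assigned is not given in the sources used here, and its part in the values of single copies was not tested. If such reads were left out, or counted on each copy, sums over copies and the pools and shares holding them would also be affected. This was not tested either.

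The copies lie in 4 places of the annotation, each on the same strand as its host gene. mir-2a-1, mir-2a-2 and mir-2b-2 sit together on 2L in introns of spi, which encodes the EGF receptor ligand Spitz, with gaps of 209 and 335 bp between neighbours. mir-2b-1 lies alone on 2L, in the 3′ UTR of 1 of the 8 annotated transcripts of Btk, a gene for a tyrosine kinase. mir-2c, mir-13a and mir-13b-1 lie on 3R within exons of the non-coding RNA CR45911, with gaps of 127 and 66 bp. mir-13b-2 lies on X in an intron of CCT2, which encodes a subunit of a protein-folding complex. Host transcripts were not measured in these tables.

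The miRNA tables held 1819781 reads in pelo1/+ and 1999224 reads in peloPB60/1, and levels are given as reads per 1000000 miRNA reads (CPM). At this depth 1 read is worth 0.55 and 0.50 CPM. There was 1 library per genotype, so every difference is between 2 libraries, without a replicate check and without a p-value. The 95% intervals are exact intervals of the read counts (Poisson for a level, Clopper-Pearson for a share or a ratio) and cover counting error only. With at least 50 reads summed over both libraries, a hairpin was called higher or lower in peloPB60/1 when it differed at least 2-fold with an interval that excluded no difference. Of the 3 follicle cell markers, 1 was called higher, 1 lower and 1 neither. miR-989 was 2.55-fold higher in peloPB60/1, miR-318 had a log2 ratio of -0.05, and miR-994 was 12.9-fold lower, from 85458 to 6602 CPM. Their sum, most of it miR-989, was 268603 and 459037 CPM. miR-989 took 17.4% and 44.4% of all miRNA reads, so the other hairpins together held a smaller share in peloPB60/1. From shares alone, more miR-989 and less of the other hairpins cannot be told apart. The muscle marker miR-1 went from 2218 to 6899 CPM, while miR-133 had 12 reads in each library, so their sum of 2225 and 6905 CPM was nearly all miR-1. The neuronal marker miR-124 had 11 and 36 reads. None of these 6 markers was at 0. In whole ovaries, fewer cells of a type and less RNA per cell cannot be told apart, and the part of tissue makeup in the values below was not tested.

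Taken as 1 pool, the 8 hairpins held 4101 reads in pelo1/+ and 13381 reads in peloPB60/1. This was 2254 CPM (interval 2185 to 2324) and 6693 CPM (interval 6580 to 6807). The pool was 2.97-fold higher in peloPB60/1, with a log2 ratio of 1.57 (interval 1.52 to 1.62). Much of that difference came from mir-2b-2: the other 7 hairpins held 2939 and 4964 reads, a ratio of 1.54 (log2 ratio 0.62), under 2-fold when scaled to the miRNA total. Taking miR-989 out of the totals raises every log2 ratio by 0.57, which brings that of these 7 hairpins past 2-fold. Leaving mir-2b-2 out was chosen after its values were seen.

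By mature name, miR-2b and miR-2a were higher in peloPB60/1, miR-13a was lower, and miR-13b and miR-2c were not called. Summed over both copies, miR-2b had 667 CPM in pelo1/+ and 4218 CPM in peloPB60/1. Its log2 ratio was 2.66 (interval 2.57 to 2.75), a 6.32-fold difference. miR-2a, also summed, had 379 CPM and 910 CPM, with a log2 ratio of 1.26 (interval 1.14 to 1.39). The level of miR-2a was thus 2.40-fold higher, less than the difference of miR-2b. miR-13b had 1099 CPM and 1546 CPM, with a log2 ratio of 0.49 (interval 0.41 to 0.57). Its interval excluded no difference, but its ratio of 1.41 stayed below 2-fold. Once miR-989 was taken out of the totals, miR-13b passed 2-fold, at a log2 ratio of 1.06.

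The remaining names come from single hairpins on 3R. miR-13a had 186 reads or 102 CPM in pelo1/+ and 28 reads or 14.0 CPM in peloPB60/1. It was 7.19-fold lower, with a log2 ratio of -2.85 (interval -3.50 to -2.29). miR-2c had 12 reads in each library, under the minimum of 50, and its log2 ratio of -0.14 had an interval from -1.42 to 1.15. A difference of 2-fold in either direction was not detectable for miR-2c at this depth.

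**Figure D1:**
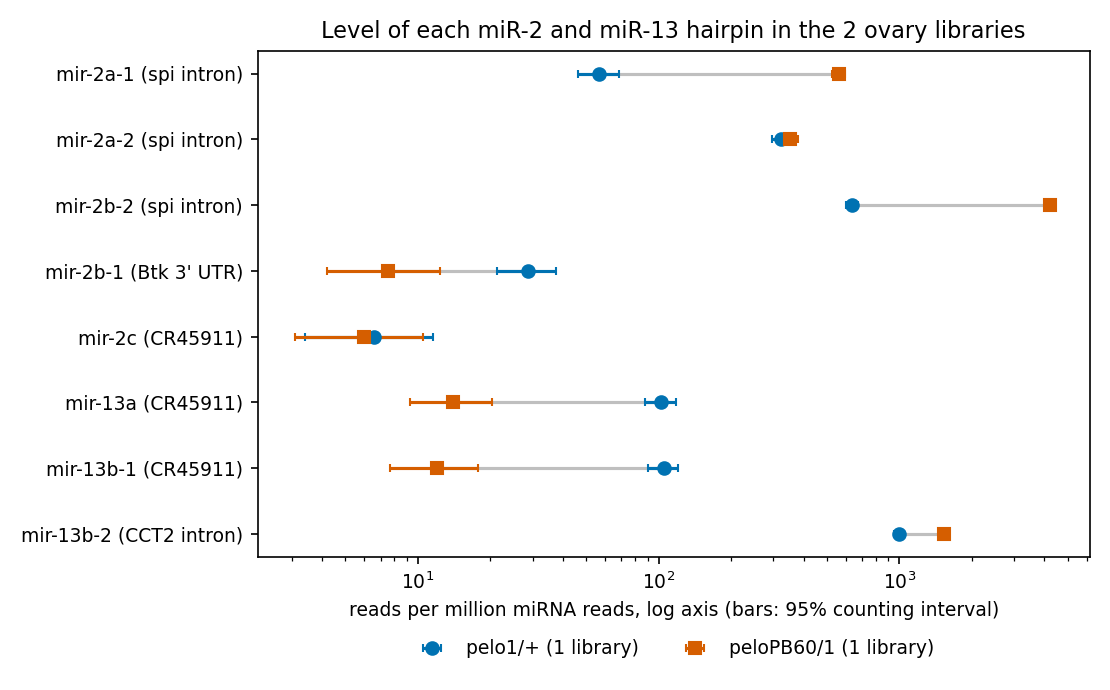
Level of each hairpin in pelo1/+ (blue circles) and peloPB60/1 (orange squares), in reads per 1000000 miRNA reads (CPM) on a log axis, with 95% Poisson counting intervals and the host gene in brackets; there is 1 library per genotype. mir-2a-1 and mir-2b-2 lie to the right in peloPB60/1, as does mir-13b-2 by less than 2-fold, while mir-2b-1, mir-13a and mir-13b-1 lie to the left.

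The ratio of a sum lies between those of its copies, so single copies spread more widely than the sums by construction. Of the 7 hairpins past the minimum, 2 were higher in peloPB60/1, 3 were lower and 2 were neither. Over all 108 hairpins past it, 15.7% were higher and 31.5% were lower, 47.2% in all. That split of 17 higher and 34 lower hairpins moved to 23 and 28 or 29 under 4 other scalings and to 27 and 24 without miR-989. Both directions were therefore common in the whole table, and 2 and 3 of 7 are shares of the same order. The 7 members had a median log2 ratio of 0.12, which was the value of mir-2a-2, against -0.34 over the 108 hairpins.

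Among the miR-2a copies, dme-mir-2a-1 had 103 reads or 56.6 CPM in pelo1/+ and 1117 reads or 559 CPM in peloPB60/1. This was 9.83-fold higher (log2 ratio 3.30, interval 3.01 to 3.61), the fourth highest ratio of the 108 hairpins. dme-mir-2a-2 had 586 reads or 322 CPM and 702 reads or 351 CPM. Its log2 ratio was 0.12, and the interval from -0.04 to 0.29 held no difference. The copies thus exchanged their order: mir-2a-1 carried 14.9% of the miR-2a reads in pelo1/+ (interval 12.4% to 17.8%) and 61.4% in peloPB60/1 (interval 59.1% to 63.7%). The difference in log2 ratio between them was 3.17 (interval 2.84 to 3.52).

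For miR-2b, nearly all reads were counted on mir-2b-2, and the copies went in opposite directions. dme-mir-2b-2 had 1162 reads or 639 CPM in pelo1/+ and 8417 reads or 4210 CPM in peloPB60/1. It was 6.59-fold higher (log2 ratio 2.72, interval 2.63 to 2.81). dme-mir-2b-1, the copy in Btk, had 52 reads or 28.6 CPM and 15 reads or 7.50 CPM. It was 3.72-fold lower (log2 ratio -1.90, interval -2.86 to -1.08). The share of miR-2b reads counted on mir-2b-1 was 4.28% in pelo1/+ (interval 3.22% to 5.58%) and 0.178% in peloPB60/1 (interval 0.100% to 0.293%).

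The miR-13b copies were also unequal. dme-mir-13b-1, on 3R, had 191 reads or 105 CPM in pelo1/+ and 24 reads or 12.0 CPM in peloPB60/1. It was 8.59-fold lower (log2 ratio -3.10, interval -3.81 to -2.51). dme-mir-13b-2, on X, had 1809 reads or 994 CPM and 3066 reads or 1534 CPM. Its log2 ratio was 0.63 (interval 0.54 to 0.71), not called, and it passed 2-fold (log2 ratio 1.20) once miR-989 was taken out of the totals. mir-13b-1 held 9.55% of the miR-13b reads in pelo1/+ (interval 8.30% to 10.9%) and 0.777% in peloPB60/1 (interval 0.498% to 1.15%).

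**Figure D2:**
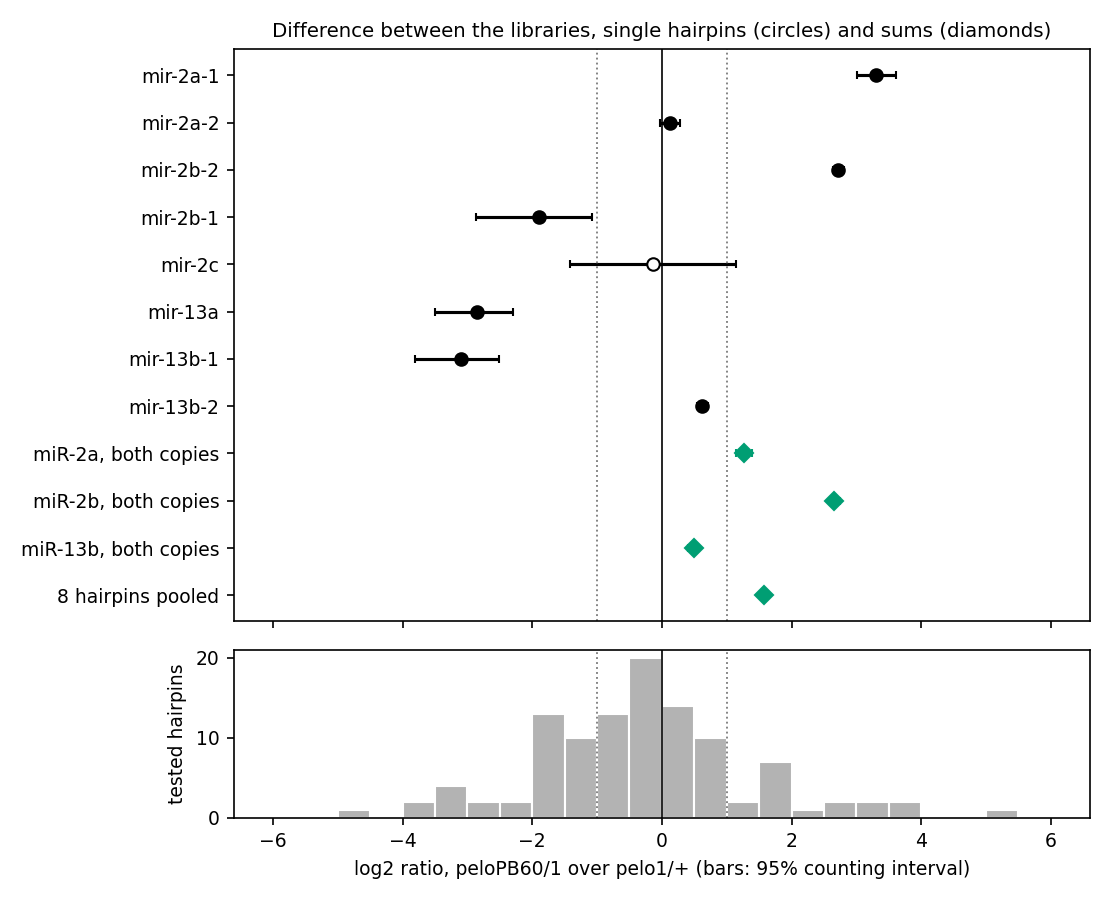
Upper panel, log2 ratio of peloPB60/1 over pelo1/+ for single hairpins (circles, open for mir-2c with under 50 summed reads) and for sums (green diamonds), with 95% counting intervals. Lower panel, the log2 ratios of all 108 tested hairpins, members included; dotted lines mark 2-fold. The copies of miR-2a, miR-2b and miR-13b lie far apart, and each sum lies near the copy with more reads, or between the copies for miR-2a.

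Within these 3 names the copies differed in their log2 ratio by 3.17, 4.62 and 3.73 units, which is 9.01-fold for miR-2a, 24.5-fold for miR-2b and 13.2-fold for miR-13b. These differences do not depend on the scaling, but they still compare 2 libraries, 1 per genotype. The tables list 2 other names with numbered copies, miR-281 and miR-6. miR-281 was the one with both copies past the minimum. mir-281-1 had 61 reads in pelo1/+ and 36 in peloPB60/1, and mir-281-2 had 28 and 24 reads. Their log2 ratios of -0.89 and -0.35 differed by 0.53, with an interval from -1.60 to 0.53 units for the first minus the second, which holds no difference. The miR-6 copies had 2 to 20 reads each, too few for a comparison.

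Set side by side by genomic place, the 3 hairpins in spi summed to 1851 reads in pelo1/+ and 10236 reads in peloPB60/1. This group was 5.03-fold higher (log2 ratio 2.33, interval 2.26 to 2.40). The 3 hairpins in CR45911 summed to 389 and 64 reads, and were 6.63-fold lower (log2 ratio -2.73, interval -3.14 to -2.35). In each group 1 hairpin, mir-2b-2 or mir-13b-1, has a copy elsewhere, and the part of read assignment in these sums was not tested. The direction of a group did not hold for each of its hairpins. In spi, mir-2a-1 and mir-2b-2 were called higher, whereas the log2 ratio of mir-2a-2 minus that of mir-2b-2 was -2.60 (interval -2.78 to -2.41). In CR45911, mir-13a and mir-13b-1 were both called lower, and their log2 ratios differed by 0.26, with an interval from -0.64 to 1.17 units that holds no difference. mir-2c, with 12 reads in each library, lay 2.71 units above mir-13a (interval 1.29 to 4.15). Of the 28 pairs that the 8 hairpins form, 4 had an interval of the difference in log2 ratio that holds 0. This count includes the pairs with mir-2c, which is under the read minimum, and its intervals cover counting error only. Pairs of hairpins outside the family were not counted in this way, so whether the family stands out in this respect was not tested.

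The order of the levels differed between the libraries. In pelo1/+ mir-13b-2 led with 44.1% of the reads of the 8 hairpins, followed by mir-2b-2 with 28.3% and mir-2a-2 with 14.3%. mir-13b-1 and mir-13a came next, at 4.66% and 4.54%, and these neighbours did not differ beyond counting error. Then came mir-2a-1, mir-2b-1 and mir-2c, at 2.51%, 1.27% and 0.293%. In peloPB60/1 mir-2b-2 led with 62.9%, followed by mir-13b-2 with 22.9%, mir-2a-1 with 8.35% and mir-2a-2 with 5.25%. The other hairpins, mir-13a, mir-13b-1, mir-2b-1 and mir-2c, had 28, 24, 15 and 12 reads, and no neighbours among them differed beyond counting error. The first and last of them did, with a ratio of mir-13a to mir-2c of 2.33 (interval 1.15 to 5.04). The miR-2 hairpins together held 46.7% of the pool in pelo1/+ and 76.7% in peloPB60/1, and the miR-13 hairpins held the rest. Among all hairpins of the table, mir-13b-2 ranked 36 in pelo1/+ and 31 in peloPB60/1, and mir-2b-2 ranked 39 and 25.

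The K-box seed is also carried by miR-11, miR-308 and the 3 miR-6 hairpins, and miR-11 and miR-6 are known to act on pro-apoptotic genes in fly embryos. Of these 5 hairpins 2 were past the minimum. miR-308, with 33590 CPM for pelo1/+ and 3893 CPM for peloPB60/1, was called lower at a log2 ratio of -3.11. miR-11 was at 1635 and 1233 CPM, a log2 ratio of -0.41 that was not called and turned to 0.16 once miR-989 was taken out of the totals. The 3 miR-6 hairpins summed to 25 and 35 reads.

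Among all 13 hairpins with this seed, the miR-2 and miR-13 hairpins held 6.01% of the reads in pelo1/+ (interval 5.83% to 6.19%) and 56.5% in peloPB60/1 (interval 55.9% to 57.2%). miR-308 held 89.6% and 32.9%, and miR-11 held 4.36% and 10.4%. The sum of all 13 went against that of the 8, with 37493 CPM for pelo1/+ and 11837 CPM for peloPB60/1. It was 3.17-fold lower, its log2 ratio being -1.66 (interval -1.68 to -1.64). Within the 8, the 5 miR-2 hairpins summed to 1052 and 5133 CPM and were called higher (log2 ratio 2.29, interval 2.22 to 2.36). The 3 miR-13 hairpins summed to 1201 and 1560 CPM and were not called (log2 ratio 0.38, interval 0.30 to 0.46). Adding the other hairpins with the seed to the pool was an alternative chosen after seeing the data.

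**Figure D3:**
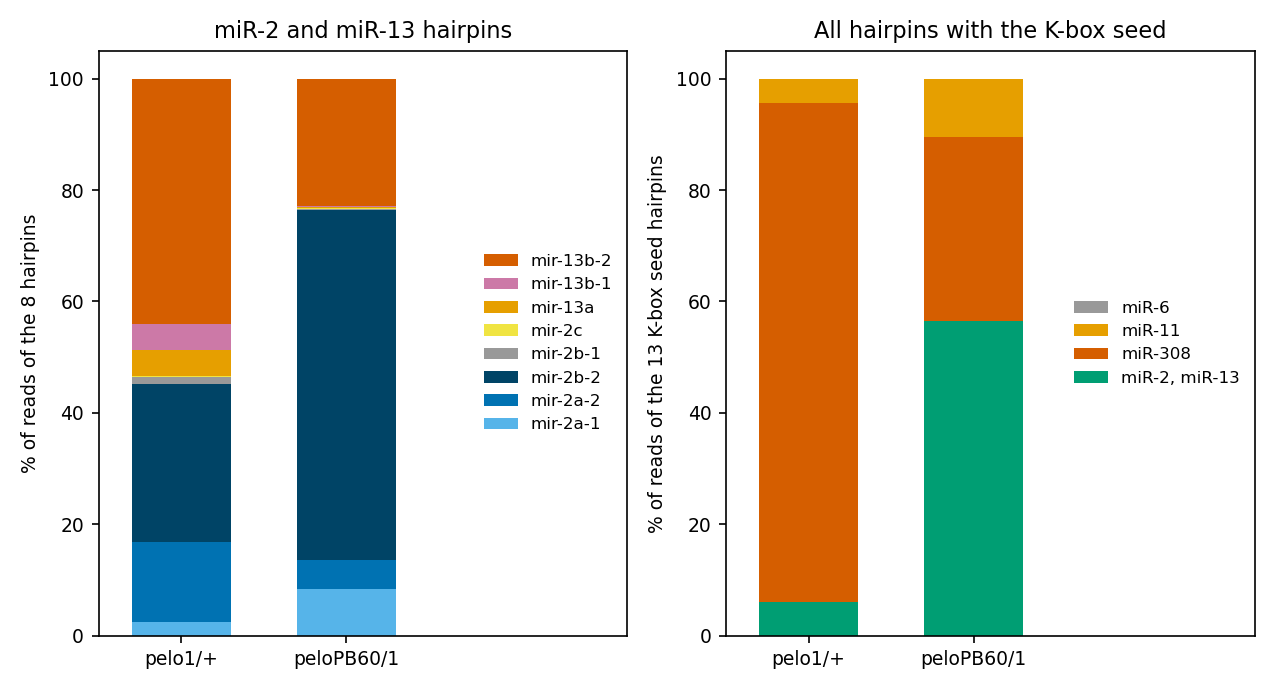
Left, share of each hairpin in the reads of the 8 miR-2 and miR-13 hairpins, in percent, in the 1 library of each genotype. Right, share of miR-2 and miR-13 (green), miR-308, miR-11 and miR-6 in the reads of the 13 hairpins with the K-box seed. mir-2b-2 goes from 28.3% to 62.9% on the left, and miR-2 and miR-13 together from 6.01% to 56.5% on the right.

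Other miRNAs linked to growth and cell death in flies went in different directions. Of the 5 listed, 4 were past the minimum, with 1 higher, 1 lower and 2 neither, and a median log2 ratio of 0.56 against -0.34 over the 108 hairpins. Scaled to the miRNA total, being called was thus about as frequent in this list as in the whole table, where 47.2% were called. Under each of the 5 other scalings, 2 of the 4 were called higher and 1 lower. Of the 108 hairpins, 23 to 27 were then higher and 24 to 29 lower. bantam, which represses the pro-apoptotic gene hid, was called lower, with 18738 CPM for pelo1/+ and 4873 CPM for peloPB60/1. miR-278, known from energy balance and tissue growth, was at 1227 and 4781 CPM and was called higher. miR-14, a suppressor of cell death, was at 1184 and 1423 CPM, a log2 ratio of 0.26. miR-263a, which represses hid in sense organs, was at 9919 and 18003 CPM. Its log2 ratio of 0.86 was not called, but it was called higher under each of the 5 other scalings, from 1.03 to 1.43. Its relative miR-263b had 14 and 20 reads.

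Likeness was also read from the size of the log2 ratio alone, over the 2 libraries and among the tested hairpins outside the family, those with at least 50 summed reads. Of these, the nearest to miR-2b (2.66) were miR-9b at 2.93 and miR-34 at 3.02. The tested hairpins nearest to miR-2a (1.26) were miR-989 at 1.35 and miR-4952 at 1.14. miR-13a (-2.85) lay nearest to miR-311 at -2.91 and miR-308 at -3.11. Among tested hairpins, miR-13b (0.49) lay nearest to miR-966 at 0.53 and miR-991 at 0.62. miR-2c (-0.14), itself under the minimum, lay nearest among tested hairpins to miR-31a at -0.15 and miR-317 at -0.10.

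Scaling shifted all log2 ratios by 1 common amount. Relative to the miRNA total the shift was 0.17 with the total of the miRNA and piRNA tables, 0.25 with edgeR's TMM factors and 0.23 with DESeq2's median-of-ratios factors. It was 0.23 without the 10 most abundant hairpins and 0.57 without miR-989. These shifts move the median of the 108 hairpins from -0.34 to between -0.17 and 0.23. Under all 5, mir-2a-1 and mir-2b-2 were called higher, and mir-2b-1, mir-13a and mir-13b-1 were called lower. The sign of mir-2c, which has too few reads for a call, turned positive under each of them.

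**Figure D4:**
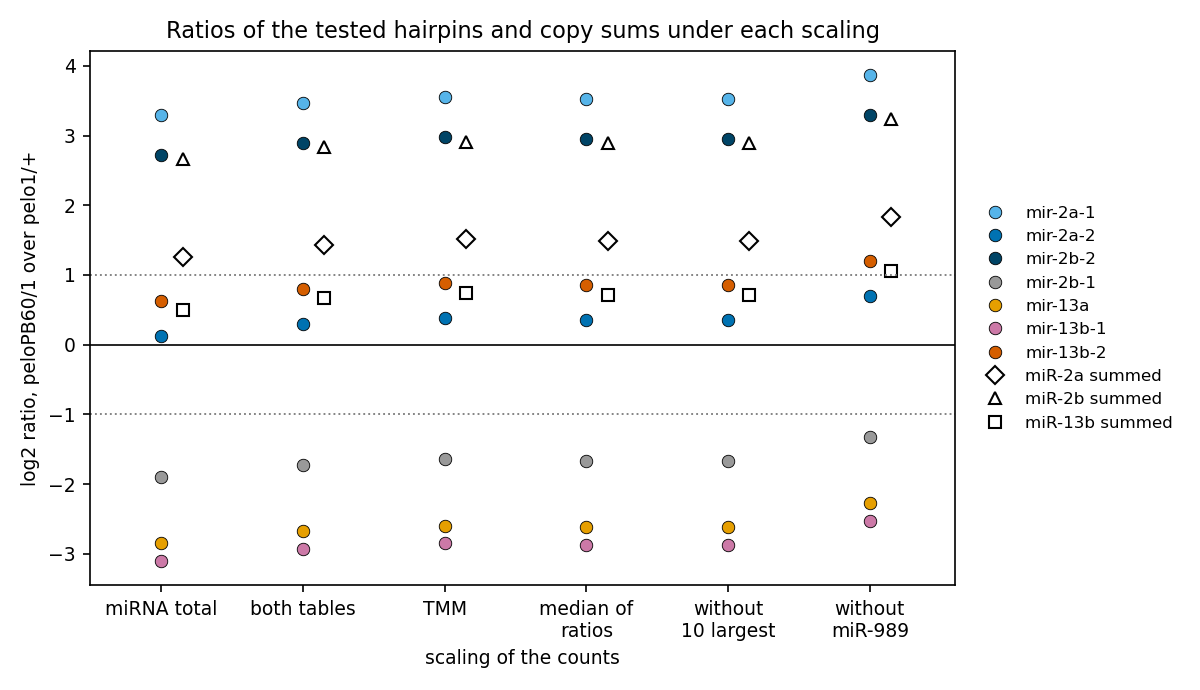
Log2 ratio of peloPB60/1 over pelo1/+ (vertical axis) for the 7 tested hairpins (filled circles) and the 3 copy sums (open symbols) under 6 scalings (horizontal axis); dotted lines mark 2-fold. Every value moves up by the same shift, at most 0.57, and only mir-13b-2 and the miR-13b sum cross 2-fold, with miR-989 left out of the total.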

How the data were processed

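Small RNAs of 18 to 30 nt were sequenced from ovaries of 2 genotypes, 1 library each. The tables deposited by the authors give raw, whole-number counts per hairpin with no normalization. In the submitters' processing notes, which list Bowtie 0.12.7 and BDGP5, the roles of both are unstated. The miRNA reference, mismatches allowed and handling of reads with several matches were not given in the sources used here.

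Counts were divided by the total of the miRNA table (1819781 and 1999224 reads) and multiplied by 1000000. Log2 ratios used 0.5 added counts, with 95% intervals from the unmodified counts (scipy 1.17.1). With 1 library per genotype, the intervals cover counting error only. Reads carry no molecular identifiers, so repeated reads of 1 molecule could not be told apart. The difference between 2 hairpins in log2 ratio has the exact conditional interval of the odds ratio. edgeR 4.0.16 and DESeq2 1.42.0 served for scaling factors only. Other filters (1, 10 and 200 reads), size rules (1.5-fold and 4-fold) and an added count of 1 were tried. The computation was tested on simulated counts. The piRNA tables served for their totals.

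All 8 hairpins were named, with the other listed hairpins, other copies past the filter, and the 2 nearest hairpins per mature name. The members and lists were chosen with earlier results of these data known. Ensembl release 115 (BDGP6) gave places and product lengths of the hairpins. This build differs from BDGP5, so no coordinates are given.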

Additional observations from a re-analysis of the deposited data

How the results depend on the processing

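No paired analysis was possible because the genotypes have a single library each, and leaving one out would end the comparison. With the total of both tables, TMM, median-of-ratios, no 10 most abundant hairpins and no miR-989, in this order, the log2 ratio of the 8 hairpins was 1.74, 1.82, 1.80, 1.80 and 2.14. That of miR-2a was 1.44, 1.52, 1.49, 1.49 and 1.83, that of miR-2b 2.83, 2.91, 2.89, 2.89 and 3.23, and that of miR-13b 0.66, 0.74, 0.72, 0.72 and 1.06. Each shift is that of the total used. The pool depended on its makeup: the median of its tested members was 0.12, the pool without mir-2b-2 gave 0.62, and all hairpins with the K-box seed gave -1.66, since miR-308 holds most of those reads in pelo1/+. Counted by mature name, 1 of 4 was lower, because mir-2b-1 and mir-13b-1, both lower, add little to their sums. Over all 108 hairpins, 17 higher and 34 lower became 27 and 24 without miR-989, 25 and 44 under 1.5-fold, and 8 and 11 under 4-fold; at a minimum of 200 reads 14 and 24 of 68 were called. Among the members, 2 higher and 3 lower became 3 higher without miR-989 or under 1.5-fold, and 2 lower under 4-fold or a minimum of 200 reads. Depth limits mir-2c, mir-2b-1, mir-13a and mir-13b-1, with 12 to 28 reads in peloPB60/1.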
